A study of Mus musculus with 2 samples.

Results

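The genes of the major histocompatibility complex (MHC) and of antigen presentation were described in the gastrocnemius, the large calf muscle, of the mouse. They were taken as every protein-coding gene with a symbol that starts with H2-, which gave 34 genes, together with B2m, Cd74, Ciita, Nlrc5, Tap1, Tap2 and Tapbp. These 41 genes stand among 22028 protein-coding genes of 55536 annotated genes, and 37 of the 41 lie on chromosome 17. The series holds 1 group of 2 libraries of total RNA from male B6CASTF1/J mice, the F1 hybrid of C57BL/6J and CAST/EiJ, with no treatment named. One label gives an age of 18-20 months and another gives the age as unknown. The input of each library was 300 ng of RNA, to which spike-in RNAs had been added. The libraries are biological replicates 1 and 2 and are labelled as males of different number, but both cite the same donor record. With 1 group no comparison of conditions exists, and a p-value between the libraries measures only how far these samples differ beyond counting error, which may be technical.

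Class I molecules pair a polymorphic heavy chain with the light chain beta-2 microglobulin (B2m) and show peptides from inside the cell to CD8 T cells. The peptides are cut by the proteasome, pumped into the endoplasmic reticulum by the Tap1-Tap2 transporter and loaded with the help of tapasin (Tapbp). Class II molecules are pairs of alpha and beta chains, mostly of professional antigen-presenting cells, which are guided by the invariant chain (Cd74) and edited by H2-DM. Nlrc5 and Ciita are the transactivators of the class I and class II genes. Adult muscle fibres are known for low class I levels.

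The heavy chain genes are close copies of each other, which bears on how reads were given to them. Strain alleles may affect this as well, since the mice are F1 hybrids, and their part was not tested. The first 90 bases of exon 2, which encodes the alpha 1 domain with part of the peptide groove, are shown for 5 heavy chain genes of the mm10 assembly. Capitals mark bases that differ from H2-K1 (mouse transcripts of GENCODE M21, 5′ to 3′ on the gene's strand).
H2-K1, chr17:33999914-34000003, minus strand: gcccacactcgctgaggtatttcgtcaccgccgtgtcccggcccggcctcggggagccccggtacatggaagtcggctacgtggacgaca
H2-D1, chr17:35263379-35263468, plus strand: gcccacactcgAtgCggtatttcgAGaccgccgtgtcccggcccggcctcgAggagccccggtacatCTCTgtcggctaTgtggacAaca
H2-Q6, chr17:35425108-35425197, plus strand: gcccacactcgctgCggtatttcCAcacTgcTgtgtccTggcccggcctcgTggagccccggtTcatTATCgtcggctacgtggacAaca
H2-Q7, chr17:35439452-35439541, plus strand: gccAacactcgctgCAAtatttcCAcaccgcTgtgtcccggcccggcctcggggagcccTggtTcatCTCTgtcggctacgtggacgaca
H2-T23, chr17:36032333-36032422, minus strand: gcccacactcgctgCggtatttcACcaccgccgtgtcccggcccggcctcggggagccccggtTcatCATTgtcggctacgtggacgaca
Over the 270 bases of exon 2, H2-D1 was 91.1% identical to H2-K1, H2-Q6 88.1%, H2-Q7 87.8% and H2-T23 86.7%. H2-Q6 and H2-Q7 were 93.0% identical to each other.

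Exon 4 encodes the alpha 3 domain, which binds CD8 and B2m, and is more alike among the genes. Its first 90 bases are shown in the same way, with H2-Q4 in place of H2-Q7.
H2-K1, chr17:33997471-33997560, minus strand: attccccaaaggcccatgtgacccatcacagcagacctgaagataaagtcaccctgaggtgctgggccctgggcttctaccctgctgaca
H2-D1, chr17:35265784-35265873, plus strand: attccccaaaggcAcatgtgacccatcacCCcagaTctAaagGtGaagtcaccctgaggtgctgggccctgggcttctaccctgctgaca
H2-Q4, chr17:35382858-35382947, plus strand: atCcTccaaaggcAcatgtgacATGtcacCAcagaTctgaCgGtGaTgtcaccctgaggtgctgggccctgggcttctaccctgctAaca
H2-Q6, chr17:35427864-35427953, plus strand: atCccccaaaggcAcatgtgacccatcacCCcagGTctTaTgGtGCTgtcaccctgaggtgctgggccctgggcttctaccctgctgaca
H2-T23, chr17:36031008-36031097, minus strand: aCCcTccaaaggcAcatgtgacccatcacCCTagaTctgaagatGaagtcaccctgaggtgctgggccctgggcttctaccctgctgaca
Over the 276 bases of exon 4, H2-D1 was 96.0% identical to H2-K1, H2-T23 95.3%, H2-Q6 93.5% and H2-Q4 92.8%. H2-Q6 and H2-D1 were 96.4% identical, so the Q gene was closer to H2-D1 there than in exon 2, where they were 87.0% identical.

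Promoters were read from RefSeq (GRCm38.p6, which shares its coordinates with mm10) for 34 of the 41 genes. No entry was found for Cd74, Ciita, Nlrc5, Tap2, H2-Ab1, H2-Q1 and H2-T24. The 160 bases before the start are shown for the light chain, a class I heavy chain (one of its 2 starts) and an alpha and a beta class II chain, to set the motifs of each class side by side. Capitals mark 3 motifs searched on both strands. CCAAT holds the letters of the Y box that the factor NF-Y binds, and reads ATTGG where it lies on the other strand. TGACGC resembles the start of a cyclic AMP response element, TGACGTCA, which was not itself searched. That full element stays in lower case in the H2-Aa stretch. GAAA followed after 2 bases by GAAA holds letters of an interferon-stimulated response element.
B2m, chr2:122147527-122147686, plus strand: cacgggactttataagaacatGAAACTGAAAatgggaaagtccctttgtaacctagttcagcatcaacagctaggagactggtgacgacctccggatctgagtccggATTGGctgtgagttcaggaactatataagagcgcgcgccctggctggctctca
H2-K1, chr17:34000334-34000493, minus strand: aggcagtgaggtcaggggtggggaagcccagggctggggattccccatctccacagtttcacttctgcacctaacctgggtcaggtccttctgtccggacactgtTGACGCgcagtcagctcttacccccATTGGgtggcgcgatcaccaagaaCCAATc
H2-Aa, chr17:34287824-34287983, minus strand: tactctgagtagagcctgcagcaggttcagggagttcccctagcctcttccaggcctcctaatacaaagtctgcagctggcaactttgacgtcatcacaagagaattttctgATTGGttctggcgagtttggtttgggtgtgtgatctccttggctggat
H2-Eb1, chr17:34305707-34305866, plus strand: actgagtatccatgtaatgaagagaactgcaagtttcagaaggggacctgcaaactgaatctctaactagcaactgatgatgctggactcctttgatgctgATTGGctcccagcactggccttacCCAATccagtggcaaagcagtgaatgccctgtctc
In the 300-base windows of the table, which run past the start, CCAAT on either strand was found in 31 of the 34 genes, against 37.4% of 32851 promoters of the same length. Counting a gene where any of its promoters matched, ATTGG was found in 8 of 8 class II chain and editing genes. It was also found in 12 of 22 class I genes, against 22.1% of all promoters. It began 48 bases before the start in H2-Aa, 59 in H2-Eb1, 61 in H2-DMb1 and 198 in H2-DMa. TGACGC was found in H2-K1, H2-D1, H2-Q4 and H2-M3, against 7.40% of all promoters. The GAAA pair was found in B2m, H2-T22 and H2-T23, against 3.44%. The motifs do not overlap each other in the printed stretches, and a match of letters is no evidence of binding.

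Levels were read as TPM (relative transcript abundance, scaled by transcript length and library total), from the table that the authors derived from a transcriptome alignment, called the first quantification below. Detected means that both libraries reached 1 TPM or more. Of the 41 genes 15 were detected, against 45.7% of all protein-coding genes. Another 3 reached that level in replicate 1 only (H2-Q6, H2-Q7 and Nlrc5). The other 23 stayed below it in both libraries, 10 of them with reads and 13 with 0 counts in both. The genes together summed to 248 TPM in replicate 1 and 188 TPM in replicate 2, which was 0.0540% and 0.0429% of the TPM of nuclear protein-coding genes. The 5 highest genes (B2m, H2-Ke6, H2-K1, H2-D1 and Tapbp) held 78.6% and 80.0% of that sum. In whole tissue, fewer cells of a type and less RNA per cell cannot be told apart.

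**Figure D1:**
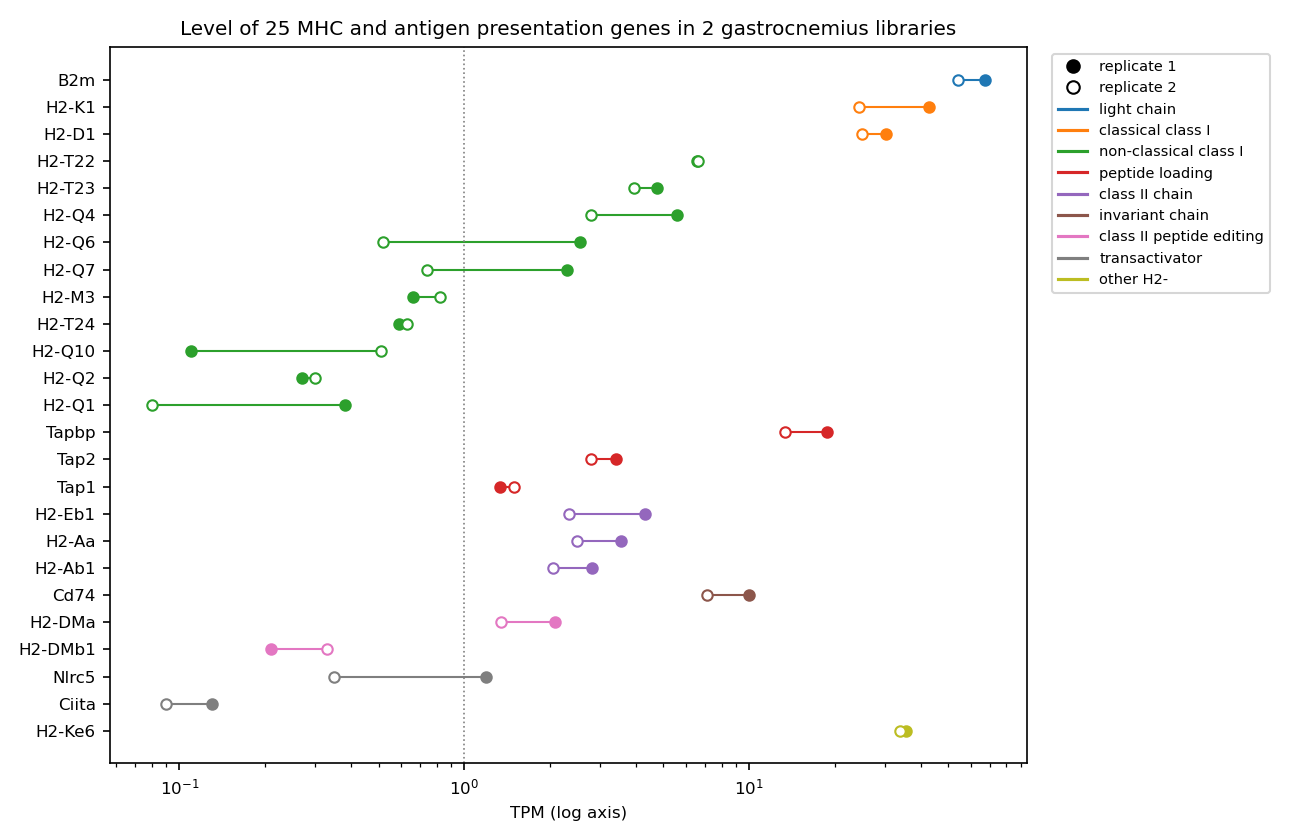
TPM on a log axis of the 25 genes with enough reads for the test between libraries, grouped by role; filled points are replicate 1, open points replicate 2, and the dotted line marks a TPM of 1. The light chain and both classical heavy chains stand to the right. Widely separated points belong to 4 of the Q genes (H2-Q6, H2-Q7, H2-Q10 and H2-Q1) and to Nlrc5.

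B2m, the light chain, was the highest of the genes, with 67.4 TPM in replicate 1 and 54.0 TPM in replicate 2 (60.7 ± 9.44, SD, n = 2) from 1619 and 1422 reads. It ranked 891 among the protein-coding genes. It lies outside the MHC (chr2:122147686-122153083, plus strand), and both libraries put it above every heavy chain.

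H2-K1 and H2-D1 are the classical class I heavy chains, which present peptides to CD8 T cells. They lie at chr17:33996017-34000347 (minus strand) and chr17:35262730-35267499 (plus strand). H2-K1 stood at 42.7 and 24.3 TPM (33.5 ± 13.0, SD, n = 2) from 1191.44 and 811.23 expected counts. H2-D1 stood at 30.3 and 24.9 TPM (27.6 ± 3.82, SD, n = 2) from 1740.34 and 1514.54 expected counts. The ranges of the genes overlapped, so they had no order, and H2-K1 held the higher TPM in replicate 1 from fewer reads. In that library 20.1 of its 42.7 TPM belonged to H2-K1-215, a transcript of 457 bases that the annotation types as retained intron. With protein-coding transcripts alone H2-K1 stood at 20.4 and 12.8 TPM and H2-D1 at 27.8 and 22.5 TPM. The ratio of H2-K1 to H2-D1 was then 0.734 and 0.571, in place of 1.41 and 0.979 over all transcripts. In the second quantification, which the authors made straight from the reads, the ratio over protein-coding transcripts was 1.28 and 0.974. Which of these heavy chains was more abundant therefore depended on the transcript assignment.

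The classical heavy chains together were about as abundant as the light chain. Their summed TPM over that of B2m was 1.08 in replicate 1 and 0.911 in replicate 2 (0.997 ± 0.122, SD, n = 2). Over protein-coding transcripts alone it was 0.716 and 0.654 (0.685 ± 0.0441, SD, n = 2). With every class I heavy chain gene included it was 1.44 and 1.22.

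The 22 non-classical class I genes, which have narrower or specialised roles, summed to 23.7 and 16.9 TPM, 0.326 and 0.344 of the classical sum. Only 3 of the 22 were detected in both libraries. H2-T22, a ligand of some gamma-delta T cells, stood at 6.58 and 6.61 TPM. H2-T23, which encodes Qa-1 and is read by the NKG2A receptor of natural killer cells, stood at 4.74 and 3.95 TPM. H2-Q4 stood at 5.56 and 2.78 TPM, a range that overlapped that of H2-T23 but not that of H2-T22. H2-Q6 and H2-Q7, which encode Qa-2 molecules, stood at 2.55 and 0.520 TPM and at 2.30 and 0.740 TPM, above 1 in replicate 1 only. H2-Q7 stood at 4.56 and 2.49 TPM in the second quantification, which made it the 16th detected gene, while H2-Q6 stood at 3.28 and 0.641 TPM. These adjoining genes lie at chr17:35424850-35430055 and chr17:35439155-35443773, both on the plus strand.

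By gene block, the 6 Q genes (H2-Q1, H2-Q2, H2-Q4, H2-Q6, H2-Q7 and H2-Q10) summed to 11.2 and 4.93 TPM, the 4 T genes to 11.9 and 11.2 TPM and the 12 M genes to 0.670 and 0.820 TPM. The sum over the Q genes was thus near that of the T genes in replicate 1 and below it in replicate 2. Nearly all of the M sum was H2-M3, which presents N-formylated peptides, with 0.660 and 0.820 TPM from 28.00 and 38.00 reads. H2-M5 had 1 read in replicate 1 and none in replicate 2. The other 10 M genes had 0 counts in both libraries: H2-M1, H2-M2, H2-M9, H2-M11, H2-M10.1, H2-M10.2, H2-M10.3, H2-M10.4, H2-M10.5 and H2-M10.6, of which the M10 genes are known from vomeronasal neurons. H2-T3, the thymus leukaemia antigen of intestinal epithelium, also had 0 counts. A count of 0 allows up to 3 counts, or 0.0735 CPM (counts scaled by the library total) in replicate 1 and 0.0668 CPM in replicate 2, for counting error only. The second quantification gave H2-M2 and H2-M10.4 1.00 and H2-T3 2.00 estimated counts, all in replicate 2.

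The remaining heavy chain genes were below 1 TPM in both libraries. H2-T24 stood at 0.590 and 0.630 TPM and H2-Q2 at 0.270 and 0.300 TPM. H2-Q10, a secreted class I molecule known from liver, stood at 0.110 and 0.510 TPM, and H2-Q1 at 0.380 and 0.0800 TPM. In the second quantification H2-M3 reached 1.07 TPM in replicate 2, H2-T24 1.06 TPM in replicate 1 and H2-Q10 1.01 TPM in replicate 2. Each reached 1 TPM in a single library there, so none of the 3 became detected.

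Peptide loading genes were all detected. Tapbp, the tapasin bridge between the transporter and class I, stood at 18.7 and 13.4 TPM (16.0 ± 3.74, SD, n = 2), below H2-D1 and above Cd74 in both libraries. Its read counts were close, 1010.98 and 1065.94. Tapbp-208, a transcript of 367 bases, held 32.8% of its TPM in replicate 1 and 8.14% in replicate 2. Tap2 stood at 3.41 and 2.79 TPM and Tap1 at 1.33 and 1.5 TPM, so the transporter's partner chains differed, with Tap1 at 0.390 and 0.538 of Tap2. Over protein-coding transcripts alone Tap2 stood at 0.770 and 0.470 TPM and Tap1 at 1.12 and 0.820 TPM, which turned that order. In the second quantification the coding transcripts of Tap2 stood at 1.65 and 1.29 TPM and those of Tap1 at 1.53 and 1.08 TPM.

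Class II chains were far below class I. H2-Aa, an alpha chain, stood at 3.54 and 2.49 TPM, and its partner H2-Ab1 at 2.80 and 2.04 TPM. H2-Eb1, the E beta chain, stood at 4.30 and 2.34 TPM, and H2-Eb2 had 0 counts. The 3 detected chains summed to 0.146 and 0.140 of the classical class I sum (0.143 ± 0.00440, SD, n = 2), a ratio that hardly moved between the libraries although both sums were lower in replicate 2. Of H2-Eb1, only 0.370 and 0.120 TPM belonged to protein-coding transcripts in the first quantification, against 1.95 and 1.24 TPM in the second. Cd74, the invariant chain, stood at 10 and 7.12 TPM from 378.00 and 293.00 reads, which was 0.940 and 1.04 of the class II chain sum.

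Among the class II editing genes H2-DMa was detected, at 2.08 and 1.35 TPM. H2-DMb1 stood at 0.210 and 0.330 TPM and H2-DMb2 at 0.250 and 0.0700 TPM. These beta chain copies share 179 windows of 100 bases, 11.3% of those of H2-DMb1 and 10.3% of those of H2-DMb2. H2-Ob had 5 reads in each library and H2-Oa had 0 counts. H2-Oa and H2-Ob form H2-DO, the inhibitor of H2-DM known from B cells.

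Both transactivators were low. Nlrc5 stood at 1.19 and 0.350 TPM, but from 95 and 66 reads, and over protein-coding transcripts at 0.370 and 0.270 TPM. In the second quantification Nlrc5 stood at 0.962 and 0.506 TPM, below 1 in both libraries. Its processed transcript Nlrc5-208 held 21.8% of its TPM in replicate 1 and 0% in replicate 2. Ciita stood at 0.130 and 0.0900 TPM from 19.00 and 16.00 reads.

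H2-Ke6 carries an H2- symbol by its place in the MHC but encodes a hydroxysteroid dehydrogenase (Hsd17b8), not an antigen-presenting molecule. By mean level it came after B2m, with a range inside that of H2-K1, at 35.5 and 33.8 TPM (34.6 ± 1.14, SD, n = 2). Of its windows of 100 bases, 61.6% also occur in Gm20427, an overlapping transcript model. The first quantification gave Gm20427 0 counts in both libraries and the second gave it 5.99 and 8.78 TPM, from 73.05 and 114.65 estimated counts. H2-Ke6 held 736.24 and 780.64 estimated counts there, so both quantifications gave most reads of this pair to H2-Ke6.

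Ordered by mean TPM of the first quantification, the 18 genes that reached 1 TPM in either library formed 17 neighbouring pairs. In 6 pairs the libraries' ranges were apart: B2m above H2-Ke6, H2-D1 above Tapbp, Tapbp above Cd74, Cd74 above H2-T22, H2-T22 above H2-T23, and Tap1 above Nlrc5. In the other 11 pairs the ranges overlapped, which covers every step from H2-T23 down to Tap1.

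The libraries were then compared gene by gene, by an exact 2-sided binomial test of rounded counts over the 14965 genes whose counts averaged 10 or more. A gene was called where its Benjamini-Hochberg adjusted p was under 0.05 and the libraries differed 2-fold or more. Of the 25 members tested 5 were called, against 6.18% of all genes tested. Of these 4 were lower in replicate 2, against 1.70% of all genes, and 1 was higher, against 4.48%. All 5 were Q genes, and the only other Q gene, H2-Q2, was not called. The test holds counting error only and compares these libraries, not conditions. edgeR's exact test, which adds the spread between the libraries, called 2 of the 25 (H2-Q6 and H2-Q7), against 1.82% of all genes, and the binomial test on the second quantification called the same 2 genes of 23 tested, against 6.10%.

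H2-Q6 showed the widest gap among the lower genes, with 158.46 reads in replicate 1 and 26.10 in replicate 2. After scaling to library size it was 6.90-fold higher in replicate 1 (95% counting interval 4.54 to 10.9, exact binomial test, adjusted p = 7.72e-27). H2-Q7 had 123.73 and 38.70 reads and was 3.61-fold higher in replicate 1 (2.50 to 5.32, exact binomial test, adjusted p = 3.67e-13). Its log2 ratio of -1.84 was -1.10 in the second quantification, from 186.72 and 97.71 estimated counts. H2-Q4 had 317.66 and 176.56 reads, 2.04-fold higher in replicate 1 (1.69 to 2.47, exact binomial test, adjusted p = 8.88e-14), at the edge of the threshold. It was not called with scaling by spike-ins or total counts, or in the second quantification. Each of these 3 had more reads in the smaller library.

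The remaining pair of called genes rested on few reads. H2-Q1 had 22.54 and 4.97 reads and was 5.22-fold higher in replicate 1 (1.94 to 17.6, exact binomial test, adjusted p = 8.73e-04). H2-Q10 went the other way, with 9.16 and 28.72 reads, 2.84-fold higher in replicate 2 (1.31 to 6.81, exact binomial test, adjusted p = 0.017). In the second quantification H2-Q1, with 4.22 and 3.89 estimated counts, was under the count minimum of the test, and H2-Q10, with 40.37 and 53.74, was not called. Summed over the block, the Q genes had 641.6 and 287.1 expected counts, while the T genes had 575.2 and 599.8.

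**Figure D2:**
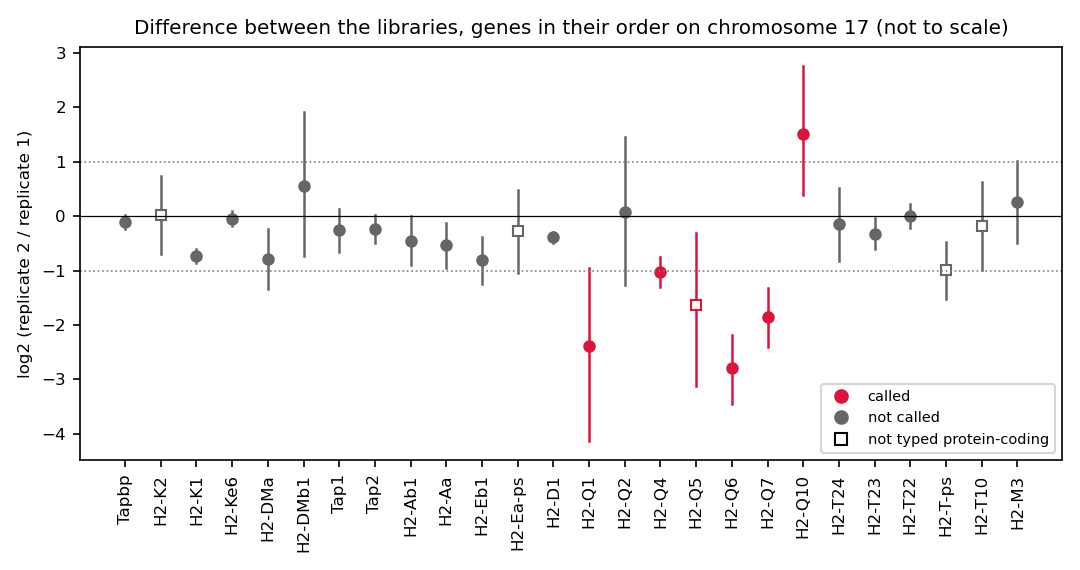
Log2 ratio of replicate 2 to replicate 1 with its 95% counting interval for the tested H2-, Tap1, Tap2 and Tapbp genes in their order on chromosome 17; red points were called, open squares are not typed protein-coding, and dotted lines mark 2-fold. The red points all stand within the Q block, and H2-Q10 is the 1 red point above 0.

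Of the 25 genes, 20 had a log2 ratio below 0, against 49.2% of all genes tested. Their median log2 ratio was -0.38, against 0.01 over all genes tested. With scaling by the spike-ins the medians were -0.16 and 0.23. H2-K1 fell by 0.74 on the log2 scale in replicate 2 (exact binomial test, adjusted p = 1.52e-28), Cd74 fell by 0.55 (exact binomial test, adjusted p = 5.48e-06) and H2-D1 fell by 0.38 (exact binomial test, adjusted p = 4.49e-13), all short of 2-fold. B2m fell by 0.37 (exact binomial test, adjusted p = 1.72e-11). H2-T22 had a log2 ratio of 0.0020 and H2-Ke6 one of -0.04, neither past the test. In all, 13 of the 25 had an adjusted p under 0.05 at any fold, against 35.4% of all genes tested.

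Transcripts of a member were not always assigned to its coding forms. Of the 18 genes above, 16 have annotated retained-intron transcripts and 1 (B2m) has a single transcript. Tap2 gave 77.5% and 83.2% of its TPM to the retained-intron transcript Tap2-202 in the first quantification and 60.3% and 63.1% in the second, so both placed it first. H2-K1-215 held 47.1% and 42.7% of H2-K1 in the first quantification, but 11.2% and 0% in the second, where the coding H2-K1-205 led with 29.8% and 39.0%. H2-Eb1-205, typed as a target of nonsense-mediated decay, held 37.9% and 64.0% of H2-Eb1, and the coding H2-Eb1-203 3.65% and 5.22%. In the second quantification H2-Eb1-203 held 40.4% and 47.9%.

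**Figure D3:**
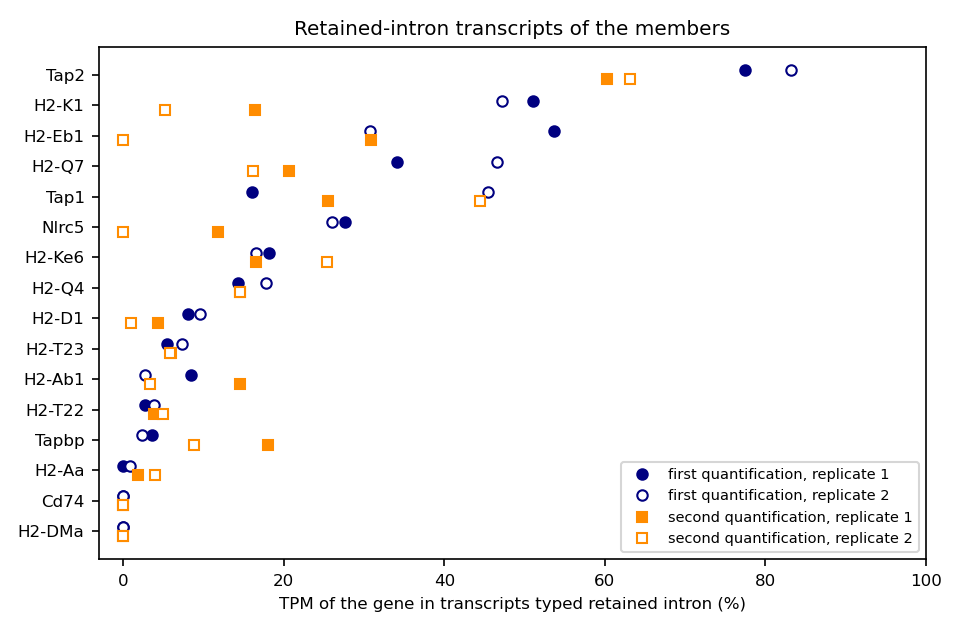
Percent of each gene's TPM in transcripts typed retained intron, for 16 genes, in both quantifications and both libraries. Tap2 stands highest by every measure, from 60.3% to 83.2%, while the circles and squares of H2-K1 are far apart.

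Other members had a stable main form. H2-D1-202 held 87.8% and 84.0% of H2-D1 and H2-T23-201 94.6% and 92.7% of H2-T23. Cd74-201, which is the shorter of its 2 coding forms with reads, held 61.0% and 65.0%, and Cd74-202 held 39.0% and 35.0%. In the second quantification these were 56.2% and 60.3% against 43.8% and 39.7%. Across the 17 genes with several transcripts, both quantifications had the same leading transcript in 11.

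Reads shared between copies touched some members more than others. Of the 41 genes 14 had at least 1 window of 100 bases that also occurs in another gene, against 25.9% of protein-coding genes, and 5 had at least 10% of their windows shared, against 12.5%. H2-Q7 shares 270 windows with H2-Q10, 170 with the pseudogene H2-Q5 and 166 with H2-Q6. Those 166 windows are 8.36% of the windows of H2-Q6 and 3.42% of those of H2-Q7. Expected counts were not whole within 0.001, the mark of shared reads, in 12 of the 25 tested members, against 14.7% of protein-coding genes. The deposited posterior SD was above 0.1 of the mean count as a mean over the libraries in 1 of the 25 (H2-Q1), against 2.11%. In replicate 1 alone H2-Q10 (0.133) and H2-DMb1 (0.121) also passed it.

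The second quantification gave the median protein-coding gene 106% of its first count in each library. H2-K1 received 110% and 116%, and H2-D1 101% and 101%. B2m received 75.8% and 71.7%, although none of its windows is shared with another gene. H2-Q7 received 151% and 252%, and H2-Q10 441% and 187%. H2-Q2, with 10.01 and 12.01 reads in the first, received 10% and 83.7%. Compared by TPM within protein-coding genes, 0 of 17 members with a mean TPM of at least 1 differed past 2-fold between the quantifications, against 1.76% of protein-coding genes.

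**Figure D4:**
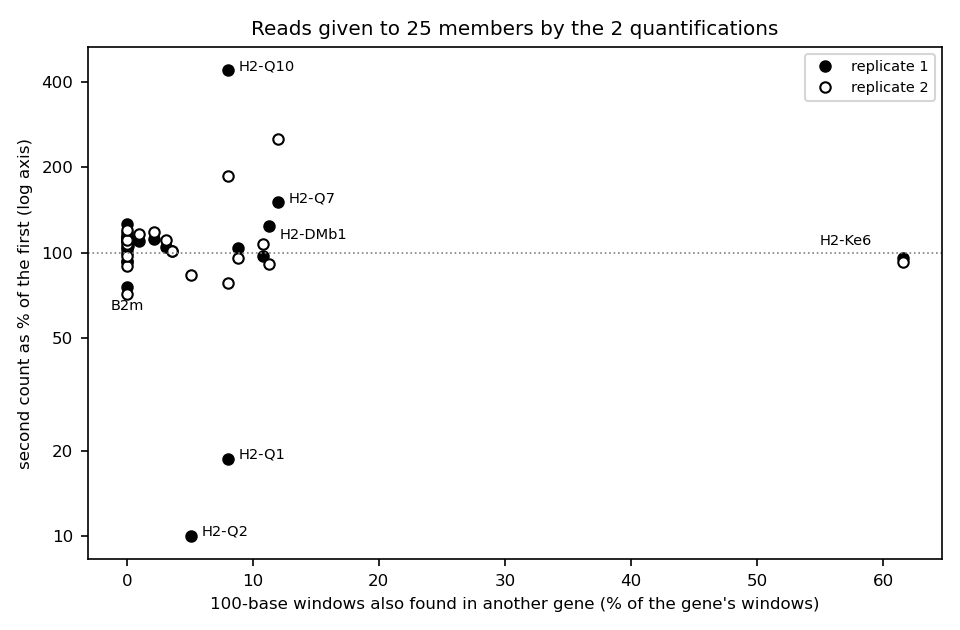
Estimated count of the second quantification as a percent of the first, on a log axis, against the share of the gene's 100-base windows found in another gene, for the 25 tested members. Most points lie near 100%, the low-count H2-Q10, H2-Q1 and H2-Q2 lie far from it in replicate 1, and B2m lies below it with no shared window.

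Beyond the 41 genes, 11 entries with an H2- symbol have another gene type, and 7 of them had counts. The pseudogene H2-T-ps stood at 2.83 and 1.47 TPM. H2-Ea-ps, the E alpha chain gene that lacks its promoter in C57BL/6 mice, stood at 1.26 and 0.930 TPM from 32.00 and 30.00 reads. H2-Q5, a further Q entry, had 19.46 and 6.80 reads and was called lower in replicate 2 (exact binomial test, adjusted p = 0.029). Among 4 genes of the region that share windows with these but carry no H2- symbol, Gm11127 reached 1.11 and 1.35 TPM.

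Genes that feed class I with peptides were present. Of the 12 in the lists of loading, trimming and immunoproteasome genes 0 passed the binomial test at 2-fold, against 6.18% of all genes tested. Lists this short cannot tell 0 called from that share. All 5 immunoproteasome genes were detected, led by the activators Psme1 (28.0 and 30.7 TPM) and Psme2 (26.4 and 23.7 TPM), and 0 of 5 were called. The inducible catalytic subunits stood lower, Psmb10 at 10.6 and 11.4 TPM, Psmb8 at 3.93 and 2.82 TPM and Psmb9 at 2.54 and 1.59 TPM. Their 3 constitutive counterparts were led by Psmb7 (141 and 130 TPM) and Psmb6 (104 and 102 TPM), with Psmb5 at 68.2 and 71.1 TPM. The 7 loading and trimming genes were all detected, led by Hspa5 (71.1 and 89.7 TPM) and Calr (68.5 and 67.4 TPM), with 0 called. Of 8 class II processing genes 7 were detected and 0 called, led by Ctsd (191 and 190 TPM) and Ctsb (89.3 and 101 TPM).

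Regulators of the MHC promoters were present, and the calls in these lists stand beside 6.18% called over all genes tested. All 10 listed promoter factors were detected and 0 were called, led by Nfyb, a subunit of NF-Y (20.1 and 16.0 TPM), and Irf2 (15.5 and 17.8 TPM). All 9 interferon signalling genes were detected with 0 called, led by Jak1 (50.1 and 44.9 TPM) and Ifngr2 (22.7 and 22.2 TPM). Of 14 interferon-induced genes 11 were detected and 13 tested, with 1 called lower in replicate 2, Gbp7 (8.44 and 2.89 TPM), and 1 called higher, Gbp6 (1.89 and 4.50 TPM). Over these 13 the log2 ratio had a median of -0.09. The most abundant by mean level were Irgm1 (6.01 and 6.61 TPM) and Igtp (5.99 and 5.82 TPM). Of 7 class I-like genes outside the H2- names 5 were detected, and Cd1d1, which presents lipids to natural killer T cells, was called lower in replicate 2 (2.83 and 1.52 TPM). The list was led by Fcgrt (12.2 and 11.6 TPM) and Hfe (8.38 and 10.8 TPM). None of 6 co-stimulation genes was detected in both libraries, led by Cd274 (0.880 and 1.05 TPM) and Icosl (0.620 and 0.650 TPM), with Pdcd1lg2 at 0 counts.

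Markers of the cells that could carry these transcripts were given as summed TPM, and their calls stand beside 6.18% called over all genes tested. The 5 muscle fibre markers summed to 92077 and 70633 TPM, with a median log2 ratio of -0.50, below 0 in 5 of 5 and 0 called. They mark the labelled tissue. Of 10 macrophage markers 9 were detected, summing to 47.5 and 53.7 TPM with a median log2 ratio of 0.23 and 0 called. Of 9 dendritic cell markers 2 were detected, Zbtb46 (2.06 and 2.48 TPM) and Clec10a (1.61 and 1.35 TPM), which held most of the list's 4.37 and 4.66 TPM. Cd209a stood at 0.570 and 0.420 TPM, Itgax, Clec9a, Batf3, Flt3 and Xcr1 at 0.220 TPM or less, and Ccr7 at 0 counts. Over the 3 tested the median log2 ratio was -0.25. None of 5 B cell markers (0.530 and 0.270 TPM), 8 T and natural killer cell markers (0.110 and 0.300 TPM, with Cd3d, Cd8a and Ncr1 at 0 counts) or 4 neutrophil markers (0.230 and 0.280 TPM, with S100a9 and Ly6g at 0 counts) was detected. All 6 endothelial markers were detected, summing to 40.6 and 58.1 TPM with a median log2 ratio of 0.49, and Kdr and Cldn5 were called higher in replicate 2. The 5 fibroblast markers summed to 240 and 231 TPM with a median log2 ratio of 0.14, below 0 in 2 of 5 and 0 called. Col3a1 had a log2 ratio of -0.67 and Col1a1 one of -0.62, while Lum stood at 0.57, Pdgfra at 0.17 and Dcn at 0.14. The pan-leucocyte marker Ptprc stood at 0.470 and 0.570 TPM. The part of these cell types in the members' differences between the libraries was not tested.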

How the data were processed

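Total RNA was sequenced from gastrocnemius in 2 libraries. Per the labels, the assembly was mm10 and the annotation GENCODE M21. Which aligner and which quantifier was run is not given in the sources used here. Deposited expected counts (reads per gene, shared out where they fit several genes) come from a transcriptome alignment, and the deposited estimated counts of the second quantification straight from the reads, per the file list. Deposited TPM and FPKM are scaled by effective length and depth, per the file headers. Isoform use is deposited as the percent of a gene's TPM that each transcript holds. Total expected counts were 40795740 and 44919441, of which 218897 and 212898 were spike-ins. The second quantification held 39867081 and 43967795.

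Expected counts were rounded for tests. The exact binomial test used TMM library sizes (edgeR 4.0.16, R 4.3.3; scipy 1.17.1), genes whose counts averaged 10 or more and Benjamini-Hochberg adjustment over all of them. Log2 ratios use scaled counts + 0.5, while folds printed with an interval leave out the 0.5. Intervals cover counting error only. edgeR's exact test took a common dispersion from the same libraries (biological coefficient of variation 0.227). Its quasi-likelihood test could not be run on 1 group. DESeq2 1.42.0 gave alternative size factors. The binomial test was checked before use on simulated counts that held counting error only. That check cannot show how the test behaves with the further spread between these libraries. No strain-specific counts were used, so an effect of strain alleles on the levels and ratios was not tested. Windows are 100 bases of annotated transcripts, matched exactly on the same strand.

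The members and lists were chosen with earlier results of these data known. Members that reached 1 TPM in any library are named with values, the others by counts or where the quantifications disagree on that threshold. Context lists are given with their 2 most abundant genes, and genes named beyond these were chosen after their values were seen. Alternatives tried were detection thresholds, scaling, count filters, fold thresholds, pseudocounts, the second quantification, posterior mean TPM, leaving out each library and, added after seeing the data, protein-coding transcripts alone and other thresholds for the quantification checks.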

Additional observations from a re-analysis of the deposited data

How the results depend on the processing

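At a TPM of at least 0.1 the count of detected genes was 23 in place of 15, and between 15 and 18 when each library in turn was left out. The ratio of classical class I to B2m was 1.33 with all class I genes and 0.911 to 1.08 without either library. It was 0.685 with protein-coding transcripts of the first quantification. The class II to class I ratio was 0.167 in the second quantification, 0.154 by posterior mean TPM, 0.107 with all genes of each class, 0.132 with protein-coding transcripts and 0.140 to 0.146 without either library. The number of members called between the libraries was 5, but 3 of 18 tested at a mean count of at least 50 (4.18% of all genes tested), 9 at 1.5-fold (11.8%), 2 in the second quantification (6.10%) and 2 by edgeR's exact test (1.82%), the last 2 settings both keeping H2-Q6 and H2-Q7. H2-Q4 was no longer called with spike-in scaling (4 members, 8.19% of all genes) or total-count scaling (4 members, 6.32%). The members' median log2 ratio was -0.16 with spike-in scaling, where the median of all genes moved to 0.23, -0.49 at a mean count of at least 50 and -0.46 by TPM. With spike-in scaling H2-Ke6 turned to 0.18 and Tapbp to 0.12. H2-T22 turned to -0.0027 with DESeq2 size factors and to -0.11 in the second quantification. At 1.5-fold 1 member differed between the quantifications, and at a posterior SD above 0.05 of the mean 4 members passed in place of 1. The share of all protein-coding genes was not computed at these thresholds or at a TPM of at least 0.1. Whether those counts of members are high or low therefore cannot be read. The cause of the changes across settings was not tested. No paired analysis was possible because the series has 1 group. With 2 libraries, neither the spread nor the order of low genes is well determined.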
